A study of Mus musculus with 426 samples.

Results

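Chromosomes 2, 3 and 5 of the mouse were represented by 957 genomic bins, 358, 308 and 291 of them, among 4730 bins of the 19 autosomes and 5000 bins in all. They were chosen by their DNA counts in this series, which were raised in tumour cells, so that the gain itself over CD45+ cells is a description here and was given no test. For each single cell with at least 50000 DNA reads, the count of a bin was divided by the mean over that cell's autosomal bins, which gives a relative count of 1 where a bin holds the cell's average. Of 418 cells 318 reached this minimum. The cell nearest above it, an EpCAM+ cell of mouse 2 with 50522 reads, had mean relative counts of 1.14, 0.982 and 1.04 on chromosomes 2, 3 and 5, and the cell nearest below it, a peritoneal GFP+ cell of mouse 2 with 48697 reads, had 1.51, 0.972 and 1.17.

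The cells came from 3 male C57BL/6 mice that had received 50000 KPC1199-EGFP cells in the pancreas at 6 to 8 weeks of age and carried the tumours for 6 to 8 weeks. KPC is the usual name of a mouse model of pancreatic cancer, and this line, which also carries green fluorescent protein (GFP), was the only one injected into these mice. DNA and RNA of each cell were amplified in the same tube by GTO sequencing, exonic reads being taken as RNA and the others as DNA. Reads of RNA from outside exons would thus be counted as DNA, and their part was not tested. Primary tumour cells were sorted for GFP, for the epithelial surface protein EpCAM, for both, or for the leukocyte protein CD45, and GFP+ cells were also sorted from metastases. The cells used numbered 53 CD45+, 22 EpCAM+, 27 GFP+EpCAM+ and 63 GFP+ cells of the primary tumours of mice 1, 2 and 3, 74 GFP+ cells from the peritoneum of the same mice, and 40, 10 and 29 GFP+ cells from kidney, liver and spleen of mice 2 and 3. The 7 groups other than CD45+ held 265 cells in 18 sets, each set being the cells of 1 group from 1 mouse.

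A cell that carries more copies of a stretch of DNA yields more reads from it, so that read depth along the genome traces the copies relative to the cell's own average. Whole chromosomes are gained when they segregate unequally at mitosis, whereas a focal amplification multiplies a short stretch, often with a gene that drives the cell cycle. Because each cell is scaled to its own average, losses elsewhere raise the relative count of every other chromosome, and a doubling of the whole genome cannot be seen.

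Kept cells had 50522 to 3255873 DNA reads, with a median of 584486 or 116.9 per bin. The 1% of bins with most reads held between 1.57% and 44.8% of a cell's reads, and such uneven amplification moves a mean over bins. A 2nd scale was therefore added after the data were seen. In it the count is divided by the cell's median autosomal bin and by the median of CD45+ cells in that bin, then set to a median of 1 in each cell. It is called the adjusted level below, and the level of a region is the median of its bins in the cell. The leukocyte marker list summed to 7118 to 9620 CPM (RNA counts scaled to a common library total) in the CD45+ sets and to 3.80 to 813 in the other sets, and the epithelial list to 9800 to 20889 in the EpCAM+ and GFP+EpCAM+ sets. In the GFP+ primary sets the epithelial list summed to 743 to 9245 CPM, beside 111 to 1682 in the CD45+ sets. Epcam itself stood at 16.7 ± 7.33 CPM in GFP+ primary cells (SD, n = 3 mice) against 1051 ± 626 in EpCAM+ cells. The fibroblast list, which includes collagens, summed to 2439 to 14640 in the GFP+ primary sets.

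Over the 18 sets the mean relative count was 1.26 on chromosome 3 (range 1.097 to 1.49), 1.26 on chromosome 2 (1.08 to 1.41) and 1.201 on chromosome 5 (1.07 to 1.47). These were the highest, the 2nd and the 4th of the 19 autosomes, chromosome 19 lying between at 1.21. In CD45+ cells the 3 chromosomes stood at 0.972, 1.05 and 0.994. Read along the chromosomes, the gains had different shapes. In the mean over the 18 sets chromosome 3 was raised over its whole length. Chromosome 2 was raised at both ends but little in between, and chromosome 5 almost only at its start. On the adjusted level 264 of 308 bins of chromosome 3 (85.7%) and 241 of 358 bins of chromosome 2 (67.3%) had a mean over the 18 sets at least 25% above 1, the level counted as a gain throughout. On chromosome 5 this held for 57 of 291 bins, or 19.6%, which is near the 20.1% of all autosomal bins, so the name of a gained chromosome fits only its first part. In windows of 10 bins on the relative count divided by the CD45+ mean, 20 of 35 windows of chromosome 2, 25 of 30 of chromosome 3 and 2 of 29 of chromosome 5 were gained, and on the adjusted level 22, 30 and 2. Of 47 autosomal bins at 2 or more, 29 lay on the 3 chromosomes, 21 of them on chromosome 5.

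A least-squares fit of constant pieces to the mean adjusted profile divided chromosome 2 into a start, chr2:1-14885853 in mm9 with 24 bins at a mean of 1.44, a middle, chr2:14885854-75743670 with 124 bins at 1.101, and a distal part, chr2:75743671-181748087, with 210 bins at 1.44. The distal part covered 106 Mb and 58.7% of the bins of the chromosome. Both borders were found within 3 bins in 15 of the 18 sets when each set was fitted alone. On the relative count, not divided by CD45+ cells, the same borders were found in only 3 and 2 sets. The bin at chr2:98479781-99016287 had the highest mean relative count of the chromosome, 7.88, but stood at 6.40 in CD45+ cells too, and its adjusted level was 1.69. The lowest bin, chr2:33200158-33656879, had 0.691 against 0.689 in CD45+ cells and lay in the middle part.

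Chromosome 3 had no border at which the gain ended. Over the 18 sets its 308 bins had a mean adjusted level of 1.37, and every one of its 30 windows of 10 bins was gained. The lowest window, bins 11 to 20, stood at 1.27. In that window GFP+EpCAM+, EpCAM+, GFP+ primary and liver cells had 1.46, 1.36, 1.31 and 1.26. Peritoneum, kidney and spleen had 1.14, 1.13 and 1.08, below the gain limit. On the relative count not divided by CD45+ cells 7 of 30 windows were gained. A block of 16 bins, chr3:87686428-96616710, stood higher at 1.79 against 1.347 for the remaining 292 bins, and its borders were found in 9 of the 18 sets. This block varied widely between cells: its level ran from 0.573 to 16.9 over the 265 cells, with quartiles of 1.205 and 1.999, and it was gained in 9 of 53 CD45+ cells as well. By group the level of bins 171 to 180, which lie in the block, ran from 1.21 in liver to 1.99 in spleen, with GFP+EpCAM+ cells at 1.80. The bin chr3:91989298-92582734 within the block had a mean relative count of 3.67 against 2.51 in CD45+ cells. Without the block the chromosome was gained in 133 of the 265 cells and with it in 135.

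The start of chromosome 5, chr5:1-13637294, held 18 bins with a mean adjusted level of 3.42, and the other 273 bins to position 152537259 had 1.153. Its border was found within 3 bins in 16 of the 18 sets on the adjusted level and in 13 on the relative count. The next bin, chr5:13637295-14159645, stood at 2.10, and those that follow it at 1.08 and 0.841, so that the drop took place within about 1 bin. The first 5 bins of the start, to position 5715257, had a mean of 4.65 and the remaining 13 a mean of 2.95, although bin 11 stood at 4.05, above bins 2 and 3 with 3.94 and 3.43. The 2 highest windows of 10 bins among all autosomes were those of this region, at 3.33 and 2.76, followed by 1.64 on chromosome 19 and 1.61 in the raised block of chromosome 3. The start supplied 15.96% of the reads of chromosome 5 in the median of the 265 cells and 6.22% in CD45+ cells. Without it the mean relative count of chromosome 5 was between 0.997 ± 0.0432 in GFP+EpCAM+ cells (SD, n = 3 mice) and 1.13 ± 0.242 in liver cells (n = 2 mice).

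**Figure D1:**
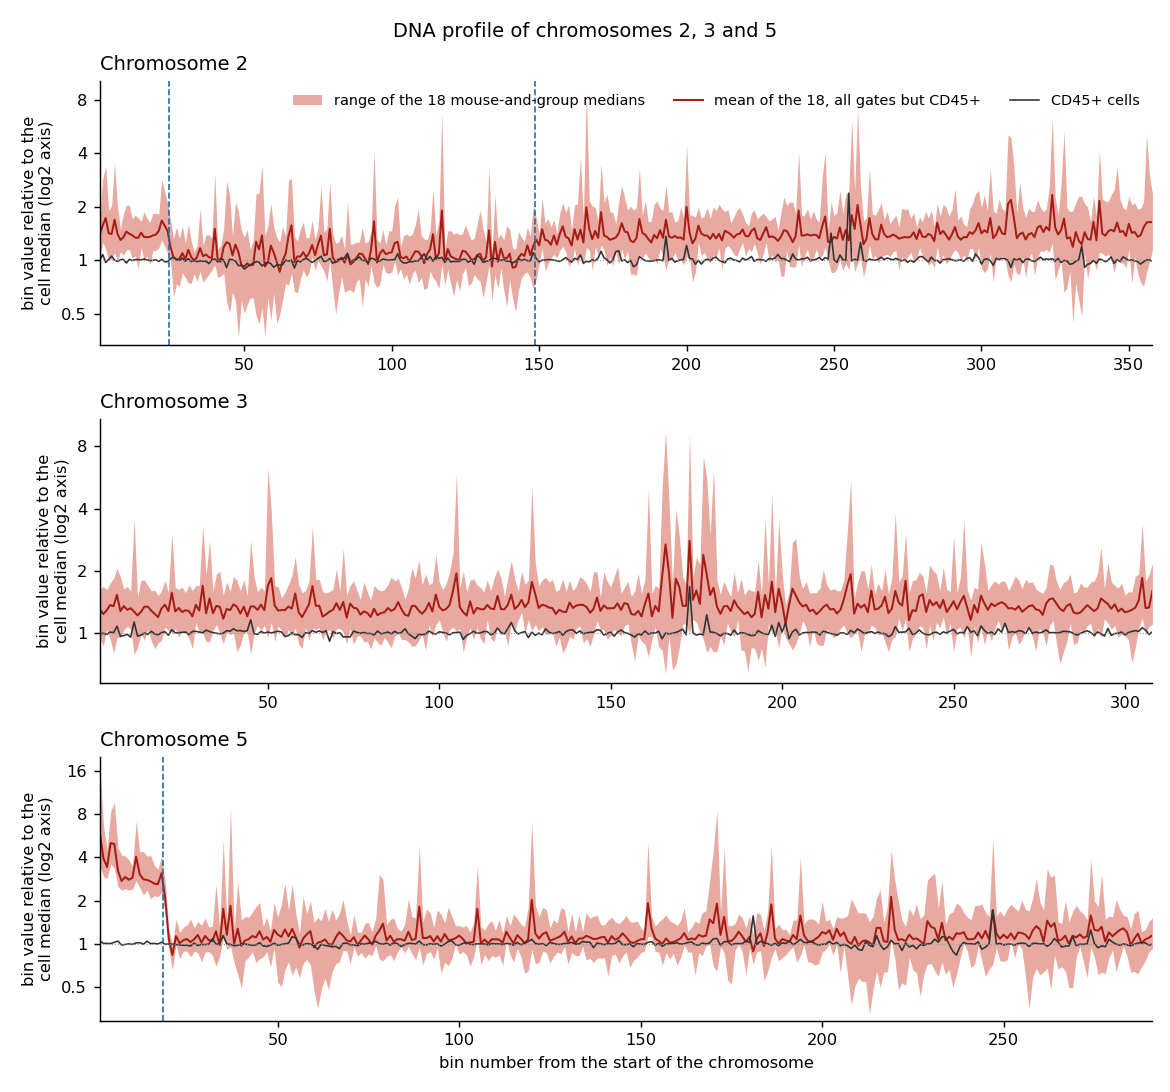
Adjusted DNA level (log2 axis) of the bins of chromosomes 2, 3 and 5 in order along each chromosome. The red line is the mean of 18 sets of cells, the band their range, the dark line CD45+ cells, and dashed lines mark the fitted borders on chromosomes 2 and 5. The red line averages 1.37 on chromosome 3, 1.44 at both ends of chromosome 2 against 1.101 in its middle, and 3.42 over the first 18 bins of chromosome 5 against 1.153 after them.

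The amplified start of chromosome 5 was present in cells of every sort and site other than CD45+. In GFP+ primary cells the set means of its adjusted level were 2.94, 3.199 and 3.38 in mice 1, 2 and 3, and in peritoneal cells 2.57, 3.47 and 3.41. EpCAM+ cells had 2.601, 2.595 and 3.26, and GFP+EpCAM+ cells 2.83, 2.73 and 2.75. These 12 means lay within the range 2.57 to 3.47. In mice 2 and 3 the kidney cells had 3.06 and 2.70, the spleen cells 3.04 and 3.10, and the liver cells 2.77 and 4.14, the last being the highest of all sets and resting on 5 cells. The CD45+ set means were 0.992, 1.11 and 1.29, below those of all other sets. This is a description only, since the adjusted level is divided by the CD45+ median and the region was cut from the other sets. Single cells overlapped, with CD45+ cells up to 4.29 and other cells down to 0.969.

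A level of 1.5, chosen after the values were seen, separated most cells. At or above it were 257 of the 265 cells, or 97.0%, and 4 of 53 CD45+ cells, or 7.55%. These shares are given with no interval, since the cells share mice and the limit comes from the same values. The amplified cell nearest the limit had 1.52 and the unamplified one 1.43. In the 257 cells the level ran from 1.52 to 7.22 with a median of 3.01 and quartiles of 2.59 and 3.56. The start was above the remainder of chromosome 5 in 257 of 257 cells, and bins 1 to 5 were above bins 6 to 18 in 251. The start and its bins 1 to 5 had been set apart on the mean of the same cells. The 257 cells were also picked by the level of the start itself. These counts therefore describe the cells and test nothing.

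The 8 unamplified cells outside the CD45+ sort were spread over 4 groups. An EpCAM+ and a GFP+ primary cell of mouse 1 had levels of 0.969 and 0.984, a flat profile on chromosomes 2 and 3 (relative counts 0.987 and 1.01, and 0.977 and 1.03), and an SD over the other 16 autosomes of 0.0181 and 0.0240, against a median of 0.217 in the 265 cells. The former carried 7883 CPM of the epithelial list and the latter 35884 CPM of the fibroblast list, with leukocyte lists of 25.3 and 13.5 CPM. A 2nd EpCAM+ cell, of mouse 3, had 1.04. The other 5, from kidney and peritoneum of mouse 3, had 1.09 to 1.43, the last of them with chromosome 3 at an adjusted level of 1.42, and carried 2152 to 10261 CPM of the leukocyte list, where the median of the 263 cells with RNA outside the CD45+ sort was 11.3 and that of CD45+ cells 5402. Of the 4 CD45+ cells above 1.5, that at 4.29 had a leukocyte list of 212 CPM and chromosome 2 and 3 counts of 1.51 and 1.30. The other 3 had 1.55, 1.66 and 2.20 with leukocyte lists of 6373 to 16440 CPM, and the one at 1.66 had 44.8% of its reads in the top bins. Whether these are cells of another kind in the gate, or wells with more than 1 cell, was not tested.

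**Figure D2:**
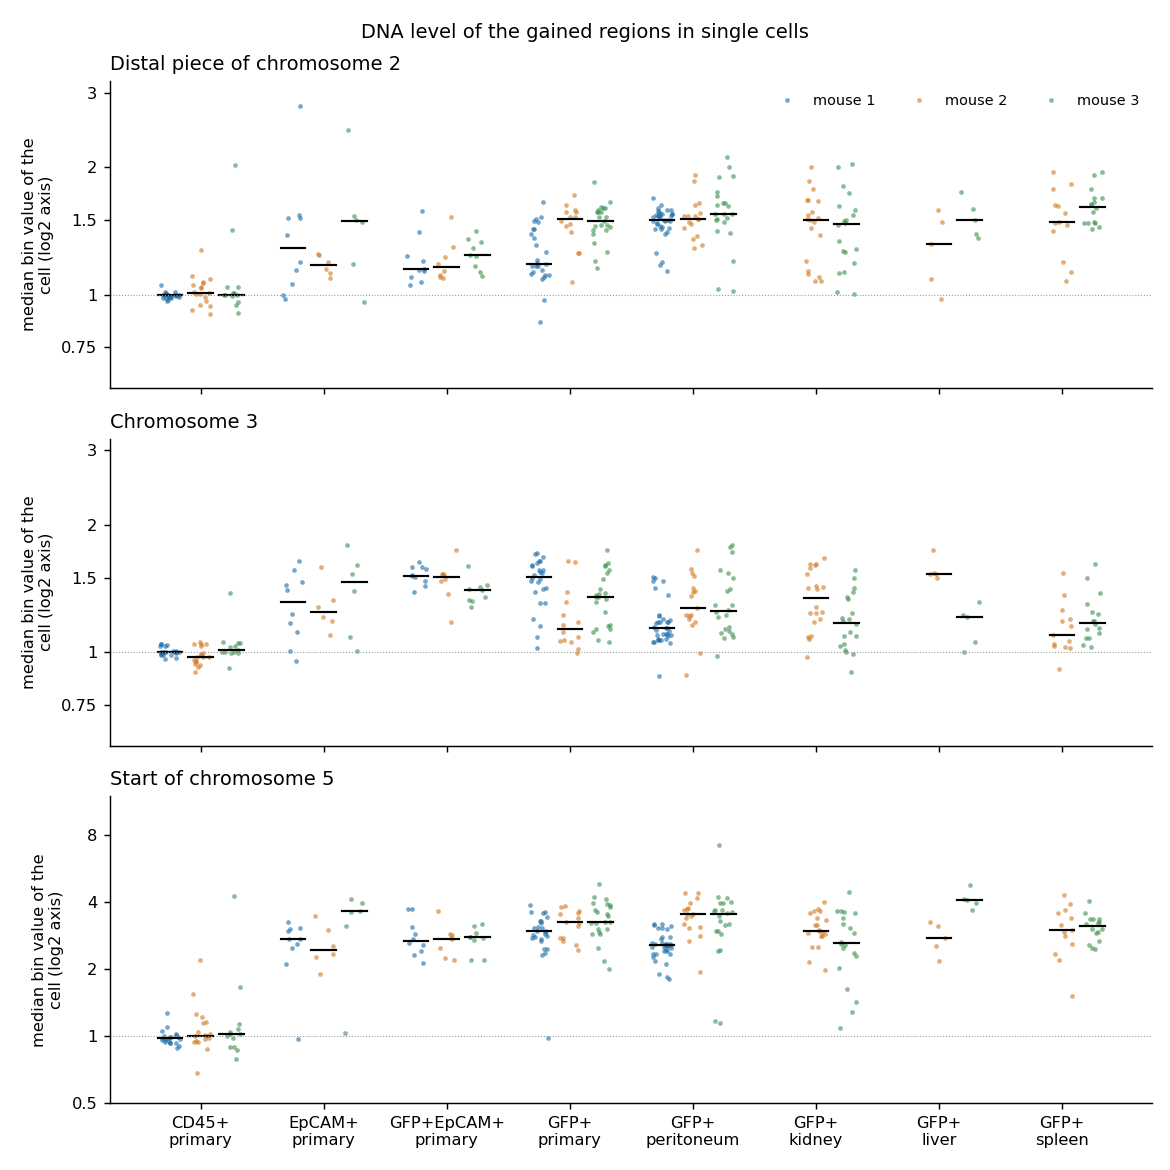
Adjusted level (log2 axes) of the distal part of chromosome 2, of chromosome 3 and of the start of chromosome 5 in 318 single cells. Each point is a cell, coloured by mouse, and bars are the medians of each mouse. For the start of chromosome 5, 257 of 265 cells outside the CD45+ sort lie at or above 1.5, while cells of most sets spread from near 1 to above 1.5 on chromosomes 2 and 3.

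On the relative count chromosome 2 had mean values of 1.18, 1.30 and 1.33 in GFP+ primary cells of mice 1, 2 and 3, and of 1.34, 1.30 and 1.33 in peritoneal cells. Kidney cells of mice 2 and 3 had 1.26 and 1.27, liver cells 1.153 and 1.33, and spleen cells 1.27 and 1.41. EpCAM+ cells had 1.31, 1.14 and 1.32. GFP+EpCAM+ cells were the lowest outside the CD45+ sort at 1.148, 1.08 and 1.151, and each of these was below the GFP+ primary mean of the same mouse. CD45+ cells had 0.993, 1.06 and 1.11.

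Chromosome 3 had another order. GFP+EpCAM+ cells were highest by the mean over mice, with mean relative counts of 1.49, 1.39 and 1.32 in mice 1, 2 and 3, although liver cells in mouse 2 and EpCAM+ cells in mouse 3 were above them. GFP+ primary cells had 1.41, 1.18 and 1.26. Peritoneal cells had 1.154, 1.21 and 1.24, so that they lay below GFP+ primary cells in mice 1 and 3 and above them in mouse 2. Spleen cells of mice 2 and 3 had 1.104 and 1.16, kidney cells 1.27 and 1.14, and liver cells 1.46 and 1.097. EpCAM+ cells had 1.28, 1.24 and 1.34, and CD45+ cells 0.997, 0.918 and 1.00. The 2 liver sets of 5 cells each were thus at opposite ends, and the SD over mice in liver, 0.258, was the widest of the 8 groups.

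The mean relative count of chromosome 5 as a whole was 1.199, 1.27 and 1.254 in GFP+ primary cells, 1.22, 1.22 and 1.29 in peritoneum, 1.23, 1.13 and 1.07 in EpCAM+ cells and 1.11, 1.08 and 1.155 in GFP+EpCAM+ cells. Kidney had 1.198 and 1.17, spleen 1.248 and 1.252, and liver 1.07 and 1.47. Over the 265 cells the SD was 0.181 on chromosome 2, 0.197 on chromosome 3 and 0.151 on chromosome 5, and in CD45+ cells 0.136, 0.0996 and 0.0796. The order was not the same in each set: in the GFP+EpCAM+ cells of mice 1, 2 and 3 chromosome 5 had the largest SD of the 3 chromosomes, at 0.178, 0.179 and 0.174.

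The number of cells gained on the relative count differed in the same way between GFP+EpCAM+ cells and metastases. For chromosome 2 it was 57 of 74 in peritoneum, 22 of 29 in spleen, 39 of 63 in GFP+ primary, 6 of 10 in liver, 21 of 40 in kidney, 9 of 22 in EpCAM+ and 4 of 27 in GFP+EpCAM+ cells. For chromosome 3 it was 22 of 27 in GFP+EpCAM+, 39 of 63 in GFP+ primary, 6 of 10 in liver, 13 of 22 in EpCAM+, 16 of 40 in kidney, 21 of 74 in peritoneum and 6 of 29 in spleen cells. For chromosome 5 it was 18 of 29 in spleen, 6 of 10 in liver, 33 of 74 in peritoneum, 27 of 63 in GFP+ primary, 14 of 40 in kidney, 5 of 22 in EpCAM+ and 6 of 27 in GFP+EpCAM+ cells. Among CD45+ cells 3, 1 and 1 of 53 reached it. Without the start, chromosome 5 was gained in 11 of the 265 cells, against 109 with it. The chromosome 5 share depends on where the limit is put, since the mean share over the 7 groups was 42.3% there, 71.8% for a limit 15% above the average and 11.1% for one 35% above it.

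Within mouse 1, GFP+ primary and peritoneal cells differed most. Of 26 primary cells 22 were gained for chromosome 3 and 9 for chromosome 2, and of 35 peritoneal cells 6 and 30. In mouse 2 the counts were 5 and 10 of 14 primary cells and 7 and 11 of 17 peritoneal cells, and in mouse 3 they were 12 and 20 of 23 and 8 and 16 of 22. The contrast of mouse 1 was thus not present in the other mice, and cells of 1 set are not replicates of a condition. RNA of mouse 1 differed in the same direction. The median log2 difference between peritoneum and primary sums of RNA, relative to 8900 genes, was 0.21 over 771 genes of chromosome 2 and -0.22 over 493 genes of chromosome 3, beside 0.19 and -0.29 for DNA. In liver cells of mouse 2, where chromosome 3 was higher in DNA by 0.31, its RNA was higher by 0.42. RNA and DNA did not always have the same sign: in kidney cells of mouse 3 chromosome 3 differed by 0.11 in RNA and by -0.14 in DNA.

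Differences between sorts and sites were tested with the mouse as the replicate. In edgeR quasi-likelihood fits to bin counts summed by mouse and group, none of the 957 bins was called at an adjusted p of 0.05 in any of 7 comparisons, and among all 4730 autosomal bins 0% were called in each. At an unadjusted p under 0.05 there were 4 of the 957 bins for peritoneum against GFP+ primary cells, 16 for kidney, 97 for liver and 18 for spleen, beside 1.33%, 2.11%, 14.1% and 4.23% of all bins. The counts were 69 for EpCAM+ against GFP+ cells, 94 for GFP+EpCAM+ against GFP+ cells and 164 for EpCAM+ against GFP+EpCAM+ cells, beside 12.9%, 8.14% and 18.5% of all bins. DESeq2 called 0, 0, 14 and 0 bins in the comparisons of sites, where it called 0%, 0%, 1.63% and 0% of all bins. In those of sorts it called 15, 8 and 42, beside 3.11%, 0.719% and 3.36% of all bins. Of the 42 bins called for EpCAM+ against GFP+EpCAM+ cells, 22 were lower on chromosome 3 and 11 higher on chromosome 5. With a block for the mouse, edgeR called 61 of the 957 bins in liver, 1 higher and 60 lower, 30 of these on chromosome 5, among 503 of all bins (10.6%). Without mouse 1 or mouse 2 the unblocked liver count was 10 or 37, beside 1.31% or 5.41% of all bins.

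Mean relative counts of the 19 chromosomes were compared with limma on the log2 scale, where none of the 19 was called in any comparison. GFP+EpCAM+ cells differed from GFP+ primary cells by -0.17 on chromosome 2 (SE 0.07, 95% interval -0.32 to -0.02, limma adjusted p = 0.207), by -0.15 on chromosome 5 (SE 0.06, interval -0.28 to -0.03, adjusted p = 0.197) and by 0.13 on chromosome 3 (SE 0.07, interval -0.03 to 0.28, adjusted p = 0.379). Chromosome 2 was lower in each of 3 mice, and chromosome 3 higher in each of 3. Between EpCAM+ and GFP+EpCAM+ cells chromosome 2 differed by 0.15 (interval 0.00039 to 0.30, limma adjusted p = 0.342). Peritoneal cells differed from GFP+ primary cells by 0.07 on chromosome 2 (interval -0.09 to 0.22), -0.09 on chromosome 3 (-0.33 to 0.14) and 0.0036 on chromosome 5 (-0.21 to 0.22). For spleen the difference on chromosome 3 was -0.18 (interval -0.44 to 0.08, limma adjusted p = 0.513). The intervals are wide with 2 or 3 mice, so a difference that was not called is not shown to be absent.

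**Figure D3:**
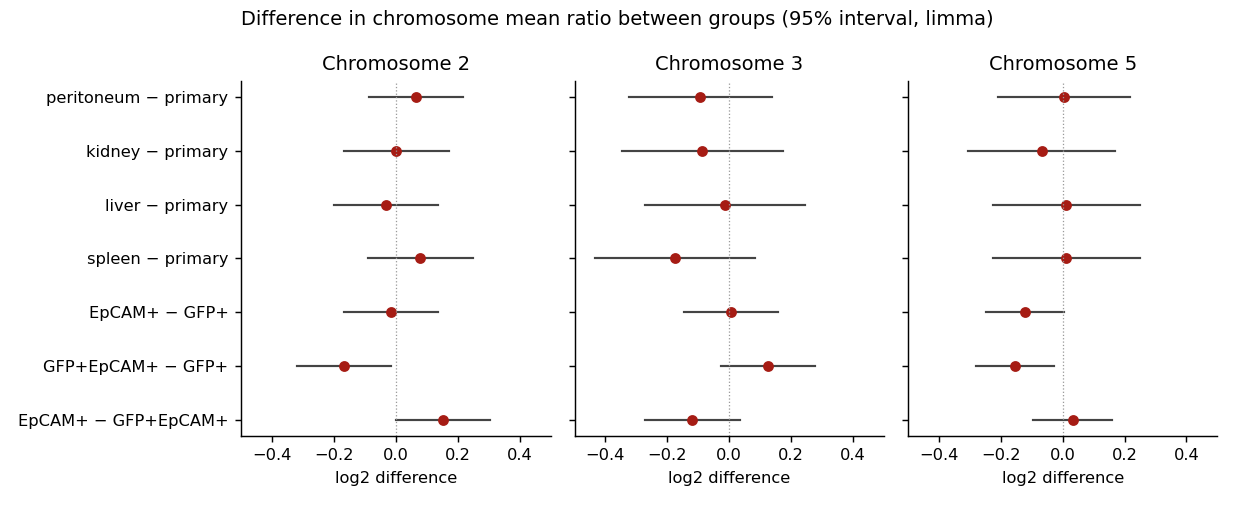
Log2 difference in the mean relative count of chromosomes 2, 3 and 5 for 7 comparisons between sites and sorts, with 95% intervals from limma. Points left of 0 mean a lower count in the group named first. Intervals of GFP+EpCAM+ against GFP+ cells on chromosomes 2 and 5 lie below 0 before adjustment, and none of the 21 points passed adjustment over 19 chromosomes.

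The gains of chromosomes 2 and 3 occurred almost always on a shared background of the amplified chromosome 5 start. Counting the distal part of chromosome 2, chromosome 3 and the start of chromosome 5 by the same limit on the adjusted level, all 3 were gained in 83 of 265 cells, chromosomes 2 and 5 alone in 110, chromosomes 3 and 5 alone in 52 and only chromosome 5 in 14. The remaining 6 cells had none. By this gain limit no cell had a gain of chromosome 2 or 3 without the chromosome 5 start. The start was itself gained in 259 of 265 cells (97.7%), so nearly any other gain would be found together with it. A kidney cell of mouse 3 had chromosome 3 at 1.42 and the start at 1.43, and was counted above as unamplified. Distal chromosome 2 was gained in 193 of 265 cells (72.8%) and chromosome 3 in 135 (50.9%). Among the 257 amplified cells distal chromosome 2 was gained in 193 (75.1%) and chromosome 3 in 134 (52.1%). The distal part was above the middle of chromosome 2 in 239 of them and the start of chromosome 2 above its middle in 240. The borders of these parts were fitted to a mean profile that included these cells. The counts therefore describe that shape and do not test it.

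The mixture of these states differed by set. Of 27 GFP+EpCAM+ cells 19 had chromosomes 3 and 5 without 2, 1 had 2 and 5 without 3, and 7 had all. Of 74 peritoneal cells none had 3 and 5 without 2, 42 had 2 and 5 without 3, and 26 had all. Spleen resembled peritoneum in its counts, with 1, 20 and 6 of 29 cells. GFP+ primary cells had 16, 20 and 25 of 63, but by mouse these were 14, 3 and 8 of 26 in mouse 1, 1, 10 and 3 of 14 in mouse 2, and 1, 7 and 14 of 23 in mouse 3. Kidney cells had 7, 19 and 10 of 40, EpCAM+ cells 7, 4 and 5 of 22, and liver cells 2, 4 and 4 of 10. No test was made of these counts, since the members and the limit come from the same values.

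On the relative count of whole chromosomes, 54 of the 265 cells were gained for both chromosomes 2 and 3, 173 for exactly 1 of them and 38 for neither. Among the 250 cells whose other 16 autosomes had an SD of at least 0.15, which leaves out cells with a nearly flat genome, exactly 1 was gained in 170, or 68%. The chromosome with the highest relative count of the 3 was number 2 in 114 cells, number 3 in 112 and number 5 in 39. In GFP+EpCAM+ cells it was number 3 in 24 of 27, and in peritoneum number 2 in 43 of 74. Across the 265 cells the adjusted levels of distal chromosome 2 and of chromosome 3 had a Pearson correlation of -0.222, where each pair of values shares a cell, its depth and its scaling. Within single sets of at least 10 cells it ran from -0.665 in kidney of mouse 2 and -0.609 in peritoneum of mouse 2 to 0.460 in peritoneum of mouse 3, so no one relation held in all sets. The start and the distal part of chromosome 2, which lie on either side of the middle, had a Spearman correlation of 0.725 over the same cells. That between the start of chromosome 5 and distal chromosome 2 was 0.348, and between the start and the remainder of chromosome 5 it was 0.267.

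**Figure D4:**
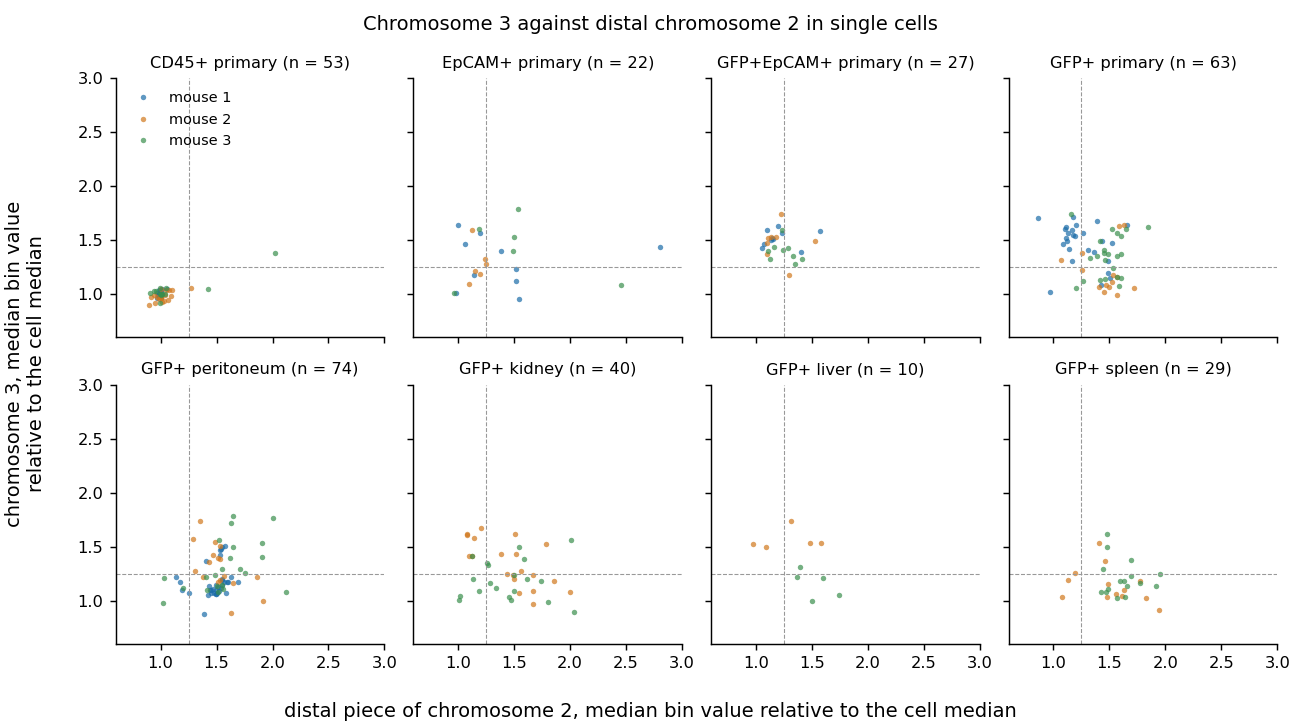
Adjusted level of chromosome 3 against that of distal chromosome 2 in single cells, by group and coloured by mouse, with dashed lines at the gain limit. GFP+EpCAM+ cells lie mostly in the upper left corner (19 of 27), peritoneal and spleen cells mostly in the lower right (42 of 74 and 20 of 29), and CD45+ cells near 1 on both axes.

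The 6 bulk libraries, 5 from mouse 1 and 1 from mouse 2, carry no replicates. In them fewer amplified cells and fewer copies per cell cannot be told apart. Bulk CD45+ cells stood at 0.951 at the start of chromosome 5 and at 1.00 and 0.988 on chromosomes 2 and 3. Bulk GFP+ primary cells had 2.43 in mouse 1 and 3.18 in mouse 2, and bulk GFP+ peritoneal cells of mouse 1 had 2.32. In mouse 1 chromosome 3 stood at 1.43 in the GFP+ primary library and 1.13 in the peritoneal one, and chromosome 2 at 1.146 and 1.33. The marker label of that primary library names EpCAM although its title names GFP, and the single GFP+EpCAM+ cells of mouse 1 had 1.49 and 1.148, so that sort and site cannot be told apart in this pair.

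RNA gave a readout that did not enter the choice of the bins, although exonic reads that come from genomic DNA would be counted as RNA, and their part was not tested. Genes were placed on chromosomes by RefSeq annotation of GRCm38.p6, from which only names, chromosomes and gene order were taken. GFP+EpCAM+, GFP+ and EpCAM+ primary cells were each compared with the same CD45+ cells (n = 3 mice each), so the 3 comparisons share their controls. Here edgeR called 100 higher and 233 lower of 19703 genes for GFP+EpCAM+ cells (0.508% and 1.18%), and 22 higher and 28 lower of the 3854 tested on the 3 chromosomes. For GFP+ cells 9 were higher and 17 lower there, beside 0.188% and 0.629% of all genes, and for EpCAM+ cells 13 and 19, beside 0.178% and 0.619%. DESeq2 called 667, 355 and 474 genes of the 3 chromosomes, beside 17.7%, 9.65% and 11.8% of all genes, with another split, 425, 238 and 295 of them being higher. Without TMM scaling edgeR had 24 higher and 55 lower for GFP+EpCAM+ cells, among 111 and 390 of all genes. Without mouse 3 edgeR called 3 in each comparison, among 13, 19 and 12 of all genes, and without mouse 2 it called 18, 14 and 19, among 85, 49 and 60.

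The median log2 difference of the tested genes from CD45+ cells was 0.11 on chromosome 3, -0.53 on chromosome 2 and -0.45 on chromosome 5 in GFP+EpCAM+ cells, beside -0.52 for all genes. In GFP+ cells the 3 medians were 0.26, 0.11 and 0.20 beside -0.20, and in EpCAM+ cells 0.22, 0.16 and -0.00069 beside -0.09. Chromosome 3 thus had the highest of the 3 medians in each sort. Without mouse 2 this did not hold in 2 sorts. In GFP+ cells chromosome 3 then had 0.17 and chromosome 5 had 0.22, and in EpCAM+ cells chromosome 3 had 0.12 and chromosome 2 had 0.18. The sign of such a median depends on the scaling, since DESeq2 gave chromosome 3 medians of -0.37, -0.46 and 0.0067 beside -1.005, -0.94 and -0.29 for all genes. Cell by cell, RNA of a chromosome was scored as the mean log2 CPM of its genes minus that of genes on the other autosomes. Genes detected in at least 20% of cells were used. For 871 genes of chromosome 3 the score had a Pearson correlation of 0.791 with that chromosome's adjusted DNA level over 263 cells. For 1450 chromosome 2 genes and its distal part it was 0.581. The Spearman values were 0.799 and 0.669, and in the 53 CD45+ cells 0.422 and 0.119, where the Pearson values were 0.599 and 0.741. For 1040 chromosome 5 genes and its start the 263 cells had a Pearson correlation of 0.268 and a Spearman correlation of 0.246. By group this Spearman correlation ran from -0.404 in EpCAM+ cells to 0.673 in liver cells. For chromosomes 2 and 5 genes of the whole chromosome were set against DNA of a part of it. On chromosome 5 that part held only 6.19% of the bins, so its values cannot be ranked against those of chromosome 3. Restricted to genes with a mean of at least 100 CPM, the Pearson values of chromosomes 3, 2 and 5 were 0.621, 0.553 and 0.265. Both measures come from the same library of a cell and share its amplification. Reads of RNA counted as DNA, or the reverse, would also enter both measures, and their part was not tested.

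The first 20 tested protein-coding genes of chromosome 5, from Gm16367 to Gtpbp10, had a median log2 difference from CD45+ cells of 3.85 in GFP+EpCAM+, 3.42 in GFP+ and 2.22 in EpCAM+ cells. Among 174 such consecutive blocks of 20 genes on the 3 chromosomes it was the highest in each comparison, the next standing at 3.01, 2.89 and 2.09. The 2nd block, from Gm8773 to Grm3, had 1.43, 2.44 and 1.93 and was number 28, 3 and 3. The third block had -1.13, -1.17 and -0.40, number 147, 174 and 156. The mm9 border at position 13637294 was not placed among these genes, because the gene order comes from another build. Of the first 40 genes 34, 35 and 36 had a positive difference, beside 43.2%, 46.5% and 47.6% of all genes. At an unadjusted p under 0.05 21, 18 and 11 were higher, beside 13.3%, 11.4% and 8.15% of all genes. After adjustment in edgeR 2, 1 and 1 were higher, beside 0.508%, 0.188% and 0.178% of all genes. Their summed RNA had a median over cells of 443 CPM in CD45+ cells and of 3375 to 5425 CPM in the other groups, and over mice the CD45+ medians were 327 to 565. Within the 263 cells outside the CD45+ sort it had a Spearman correlation of 0.230 with the DNA level of the start.

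**Figure D5:**
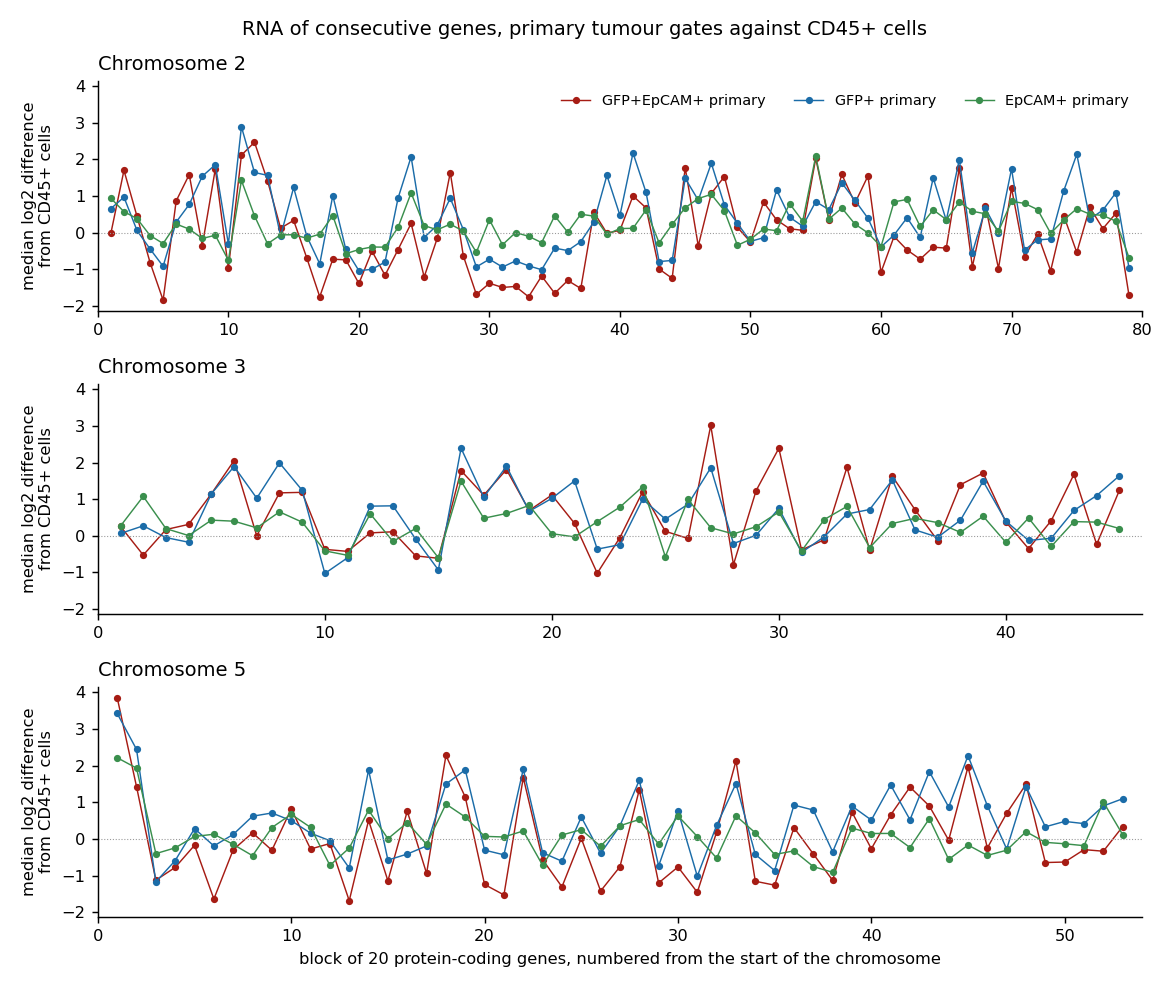
Median log2 difference in RNA from CD45+ cells over consecutive blocks of 20 tested protein-coding genes along chromosomes 2, 3 and 5, for 3 sorts of the primary tumour. The first block of chromosome 5 is the highest point in each sort, at 3.85, 3.42 and 2.22, and the third block lies below 0.

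Steap1, a membrane protein of the cell surface, was the gene of this stretch with the smallest p. It stood at 12.2, 6.74 and 2.91 CPM in CD45+ cells of mice 1, 2 and 3 and at 1210, 257 and 299 in GFP+EpCAM+, 1365, 113 and 525 in GFP+ and 1526, 406 and 445 in EpCAM+ cells, without overlap. The log2 differences were 7.06, 6.55 and 6.84 (edgeR adjusted p = 0.00733, 0.0141 and 0.0116). Crot, which acts on medium-chain fatty acids in peroxisomes and was chosen after its values were seen, had a mean of 314 CPM in GFP+EpCAM+ cells against 3.30 in the CD45+ sort (log2 difference 7.03, edgeR adjusted p = 0.0259) and did not pass in GFP+ or EpCAM+ cells (adjusted p = 0.0691 and 0.117).

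Cdk6, the cyclin-dependent kinase that drives cells toward DNA synthesis, is the 2nd of these genes in order. It had 24.6, 39.9 and 164 CPM in CD45+ cells and 288, 775 and 636 in GFP+EpCAM+, 204, 601 and 788 in GFP+ and 281, 1735 and 85.9 in EpCAM+ cells. The first 2 sorts did not overlap with CD45+ cells and the third did, but the differences of 2.998, 2.64 and 2.57 missed the threshold (edgeR adjusted p = 0.157, 0.267 and 0.301). Dbf4, the activator of the replication kinase Cdc7, had log2 differences of 5.46, 6.44 and 3.07 (edgeR adjusted p = 0.0683, 0.0674 and 0.294), and Fzd1, a Wnt receptor, 6.46, 6.21 and 1.06 (adjusted p = 0.0533, 0.0863 and 0.870). Akap9, an anchor of protein kinase A at the centrosome and Golgi, had 571 CPM in GFP+EpCAM+ cells against 43.4 in the CD45+ sort, and Abcb1a, a drug efflux pump, 119 against 5.18, both short of the threshold (edgeR adjusted p = 0.0787 and 0.104). Steap4, a relative of Steap1 in the same stretch, had the opposite sign, with 47.2 CPM in GFP+EpCAM+ cells against 223 in the CD45+ sort (log2 difference -2.48, edgeR adjusted p = 0.389). These genes other than Cdk6 were picked after their values were seen.

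Cancer and lineage genes of the 3 chromosomes formed a list of 52, chosen with earlier results of these data known. Of these 51 were tested and 45 had at least 10 CPM. In GFP+EpCAM+, GFP+ and EpCAM+ cells 5, 2 and 2 were called higher than in CD45+ cells, beside 0.508%, 0.188% and 0.178% of all genes. None was called lower, beside 1.18%, 0.629% and 0.619% of all genes. An unadjusted p under 0.05 was found for 21, 24 and 19, beside 23.6%, 17.3% and 15.9% of all genes. On chromosome 5, 2, 1 and 1 of 20 were higher with list medians of 1.97, 2.77 and 0.68. Spp1, the secreted matrix protein osteopontin, lies outside the amplified start as gene number 515 in order. It had 1921, 1049 and 2476 CPM in CD45+ cells and 22139, 18997 and 20670 in GFP+EpCAM+ cells, and rose by 3.89, 3.79 and 2.69 on the log2 scale (edgeR adjusted p = 9.5e-04, 0.0015 and 0.0164). Cxcl5, a chemokine that attracts neutrophils, rose by 8.28 in GFP+EpCAM+ cells (edgeR adjusted p = 0.0184). Cldn3 and Cldn4, tight junction proteins, had 5.31 and 7.54 there without passing (adjusted p = 0.109 and 0.0688).

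On chromosome 3, 3, 1 and 1 of 15 tested list genes were higher, beside 0.508%, 0.188% and 0.178% of all genes. Muc1, a mucin of the apical cell surface, had 5529 CPM in GFP+EpCAM+ cells against 53.3 in the CD45+ sort and rose by 6.83 (edgeR adjusted p = 0.0018), by 5.43 in EpCAM+ cells (adjusted p = 0.0116) and not beyond the threshold in GFP+ cells (2.87, adjusted p = 0.142). Tm4sf1, a tetraspanin-like protein of migrating cells, had 12.02, 68.3 and 9.73 CPM in the CD45+ sets and 1364, 2000 and 906 in the GFP+EpCAM+ sets, and rose by 5.77 there and by 4.65 in GFP+ cells (edgeR adjusted p = 0.0141 and 0.0468). S100a6, a calcium-binding protein, rose by 3.92 in GFP+EpCAM+ cells (edgeR adjusted p = 0.0476). Nras, a small GTPase of growth signalling, had 11.3 CPM in the CD45+ sort and 234.7, 301 and 124 CPM in GFP+EpCAM+, GFP+ and EpCAM+ cells, with log2 differences of 4.82, 4.59 and 3.31 that missed the threshold (edgeR adjusted p = 0.0621, 0.0996 and 0.188).

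On chromosome 2 none of the 16 list genes passed in any sort. Tpx2, which targets the mitotic kinase Aurora A to the spindle, came nearest with 5.94, 6.16 and 6.42 (edgeR adjusted p = 0.0607, 0.0793 and 0.0678), and Aurka, that kinase, had 3.46, 2.15 and 3.61 (adjusted p = 0.280, 0.572 and 0.407). Of the 5 named called genes of chromosome 2 in GFP+EpCAM+ cells 4 were lower than in CD45+ cells. Il1b, an inflammatory cytokine, fell by 11.8 in GFP+EpCAM+ cells (edgeR adjusted p = 0.00145), and Hdc, which makes histamine, fell by 9.07 (adjusted p = 0.00998). Dnajc10, a chaperone of the endoplasmic reticulum, rose by 6.26 in GFP+EpCAM+ and 5.84 in EpCAM+ cells (edgeR adjusted p = 0.0268 and 0.0434). The protease gene Ctss of chromosome 3 and the selectin ligand gene Selplg of chromosome 5 were lower, at -6.54 and -9.95 (edgeR adjusted p = 0.0270 and 0.00122). F3 and Cyr61 of chromosome 3, coding for tissue factor and a matrix-associated signalling protein, rose by 8.21 and 6.80 in GFP+EpCAM+ cells (adjusted p = 0.00127 and 0.00511). RNA of the 3 chromosomes held genes of both directions, and cell type and gain cannot be told apart in a comparison with leukocytes.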

How the data were processed

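The authors deposited a table of DNA read counts per genomic bin and a table of expected counts of RNA per gene, for 420 single cells and 6 bulk samples. Per the submitters' processing notes STAR, kallisto, Bowtie 1.0 and the build mm9 were used, and the role of each tool is not given. Bin coordinates are mm9 as deposited. The members and gene lists were chosen with earlier results of these data known. In peritoneum of mouse 1, 2 pairs of libraries differed by less than sampling noise (chi-square per degree of freedom 0.738 and 0.853; 1.63 or more in the other pairs) and were counted as 1 cell each, which left 418.

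DNA counts were summed by mouse and group (at least 3 cells, 1 fit of the 4 primary sorts and 1 of GFP+ cells of the primary tumour and 4 sites) with the autosomal total as offset. For RNA, 368 cells passed minimums of 500 genes and 10000 counts, and their expected counts were summed and rounded, with TMM scaling. Of 24520 rows, 92 for spike-ins and 4 whose symbol occurred more than once were dropped, and 99.4% of the genes used matched a chromosome. Tests were edgeR 4.0.16 quasi-likelihood and limma 3.58.1 with Benjamini-Hochberg adjustment at 0.05 over all features, tested on simulated data, and DESeq2 1.42.0 was an alternative. The other alternatives were read minimums, gain limits, scalings, filters, a mouse block and leaving out a mouse. Same-numbered samples come from the same mouse, which is where the pairing comes from. Their deviations from group means had correlations of -0.445 to 0.629 over 18 pairs (median 0.0872, 8 over 0.1). Pieces were least-squares fits with at least 10 bins each. Named bins are the 3 highest and 3 lowest per chromosome and the ends of pieces. Named genes are the list members with at least 10 CPM and up to 5 called genes per chromosome with the smallest p, leaving out predicted genes. Liver, kidney and spleen have 2 mice each, and the depth per cell was 50522 to 3255873 DNA reads.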

Additional observations from a re-analysis of the deposited data

Results flagged for a closer look

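In GFP+ liver cells the highest relative count of chromosome 5 among 10 cells was 1.98, the next being 1.39, a gap of 0.490 of the whole range, which is above the 95% limit of Dixon's test for 10 values. It came from mouse 3, whose mean of 1.47 lay above the 1.07 of mouse 2. The test treats the 10 cells as 1 sample, so it cannot tell an unusual cell from a difference between mice. About 1 in 20 such groups is expected past the limit by chance for 1 measure, and several measures were looked at. Data outside the comparisons also carried the amplified start of chromosome 5. Bulk cells sorted as GFP-negative from the primary tumour of mouse 1 stood at 1.67, from only 19523 DNA reads, and bulk GFP-negative cells from the peritoneum at 1.54, both above the 0.951 of bulk CD45+ cells. Fewer amplified cells and fewer copies per cell cannot be told apart there.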

How the results depend on the processing

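Among alternatives for the chromosome differences, 216 values kept their sign and 36 changed it, and none passed the threshold (lowest limma adjusted p 0.0629, for chromosome 5 between EpCAM+ and GFP+ cells without mouse 1). The changes of sign were in differences that had been between -0.0932 and 0.0793, and their cause was not tested. Log2 differences from GFP+ primary cells with changed sign were as follows. With cells of at least 20000 reads chromosome 5 in peritoneum had -0.0125, chromosome 2 in kidney -0.00821, chromosome 3 in liver 0.00455 and chromosome 3 in EpCAM+ cells -0.00268. Chromosome 2 in kidney had -0.00284 with cells of at least 100000 reads, -0.000910 without noisy cells and -0.00229 on the adjusted scale. On that scale, added after the data were seen, chromosome 3 had 0.00982 in liver and -0.0136 in EpCAM+ cells, and without cells whose top bins hold at least 10% of reads, added likewise, -0.0194 in EpCAM+ cells. Divided by CD45+ means, chromosome 3 had 0.0219 in liver and chromosome 2 had 0.000573 in EpCAM+ cells. With the median over bins, chromosome 5 had 0.0117 in kidney, chromosomes 2 and 3 had 0.140 and 0.178 in liver, chromosomes 2 and 5 had -0.0461 and -0.0915 in spleen, and chromosome 3 had -0.0128 in EpCAM+ cells. With the replicate block, chromosome 2 had -0.0196 in kidney, chromosomes 3 and 5 had 0.00816 and -0.00778 in liver, and chromosome 5 had -0.00746 in spleen.

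Leaving out each mouse in turn moved the difference in peritoneum to between -0.157 and 0.00515 on chromosome 3 and between -0.0161 and 0.0337 on chromosome 5, and in kidney to between -0.0507 and 0.0312 on chromosome 2. In liver the ranges were -0.0993 to 0.0874, -0.281 to 0.183 and -0.210 to 0.257 on chromosomes 2, 3 and 5, and in spleen -0.0127 to 0.0297 on chromosome 5. In EpCAM+ cells they were -0.0988 to 0.0724 and -0.0339 to 0.0806 on chromosomes 2 and 3, and against GFP+EpCAM+ cells -0.0276 to 0.106 on chromosome 5. A lone mouse left in an arm is assumed to vary like the other groups.

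The count of called bins, 0 in each comparison, was 14 in liver with DESeq2, 61 with the replicate block and 0 to 37 on leaving out a mouse, and 0 to 2 in spleen on leaving out a mouse. DESeq2 called 15 for EpCAM+ against GFP+, 8 for GFP+EpCAM+ against GFP+ and 42 for EpCAM+ against GFP+EpCAM+ cells. The mouse block changed no other call among the 957 bins or the chromosomes. RNA calls on the 3 chromosomes, 50, 26 and 32 for GFP+EpCAM+, GFP+ and EpCAM+ cells, were 79, 40 and 52 without TMM scaling, 667, 355 and 474 with DESeq2, 57, 27 and 27 with the block, and 3 to 38, 3 to 28 and 3 to 24 on leaving out a mouse. Over all genes the median log2 difference was -0.52, -0.20 and -0.09, without TMM -1.23, -0.37 and -0.23, and with DESeq2 -1.005, -0.94 and -0.29.

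The mean share of gained cells over 7 groups, 54.2%, 50.2% and 42.3% for chromosomes 2, 3 and 5, was 29.5%, 29.4% and 4.90% with the median over bins. With a limit 35% above the average it was 31.5% for chromosome 2 and 11.1% for chromosome 5, and with 15% it was 71.8% for chromosome 5. The share of cells gained for exactly 1 of chromosomes 2 and 3, 68%, was 56.4% with the 15% limit and 58.8% with the 35% limit. The share of gained windows, 57.1% and 83.3% for chromosomes 2 and 3, was 34.3% and 23.3% when not divided by CD45+ cells, and 100% for chromosome 3 on the adjusted level.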
